A study of Mus musculus with 6 samples.

Results

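TGF-beta signalling was examined at the genes of 4 ligands and 6 receptors or co-receptors, which were searched for peaks in a CUT&Tag experiment on the transcription factor Arid3a in mouse vascular smooth muscle cells. The ligand genes were Tgfb1, Tgfb2, Tgfb3 and Bmp4, and the receptor genes were Tgfbr1, Acvr1, Tgfbr2, Bmpr2, Tgfbr3 and Eng. A peak belonged to a gene where it overlapped the gene body or the 10 kb on either side in mm10. Peaks of the 6 lists that overlapped by at least 1 bp were joined into union regions. The 10 genes, of 21887 protein-coding genes, held 79 of the 79295 union regions. The rule that chose the genes uses their role and not a measured value, although earlier results of these data were known.

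CUT&Tag directs a transposase to an antibody-bound protein on chromatin and sequences the DNA fragments that are cut there. The antibody was against Arid3a, a DNA-binding protein of the AT-rich interaction domain family, and each assay took 10000 primary cells. The siArid3a group had 3 libraries, each from cells transfected with its own siRNA against Arid3a, numbered 1 to 3. The NC group had 3 libraries from cells transfected with a negative control siRNA. The stated protocol kept transfected cells for 24 h in both groups. It also describes an aneurysm model with 36 h of angiotensin II, but the exposure of each library is not given. The siRNA numbers mean that the 3 siArid3a libraries came from separately transfected cells. Nothing in the labels ties the 3 libraries of either group to different cell preparations. P-values therefore measure the spread between these libraries only. Within the siArid3a group that spread cannot be told apart from differences between the siRNAs, and in the NC group it may be technical. A control lacking the antibody was not used here, and the peaks are therefore not shown to be sites bound by Arid3a.

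The ligands TGF-beta 1, 2 and 3 are secreted in a latent form and, once released, bind the type II receptor, which then phosphorylates the type I receptor. BMP ligands use related receptors, and the co-receptors betaglycan and endoglin present ligand to the signalling pair. Activated type I receptors phosphorylate SMAD proteins, which enter the nucleus. In vascular smooth muscle the pathway is known for its control of contractile genes and of extracellular matrix, and human mutations in several of its genes cause aneurysm.

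The peak names inside all 6 lists carry the name of the library of the other group with the same number. Sample labels were followed here, and each difference between groups would change sign if the names rather than the labels were correct. Lists held 43834 to 51682 peaks in the siArid3a-labelled libraries and 47789 to 50047 in the NC-labelled libraries. Background coverage, solved from the deposited values, was 0.475 to 0.538 fragments per bp in the siArid3a-labelled libraries and 0.621 to 0.673 in the NC-labelled libraries. Coverage therefore differed with the group, and the share of any group difference that goes with it cannot be told apart. Markers of smooth muscle had a region in all 6 libraries at 7 of 8 genes, endothelial markers at 3 of 5 and immune markers at 1 of 4, but occupancy does not measure transcripts and does not check the identity of the cells.

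Promoter sequences show where regions lay relative to gene starts. RefSeq promoter windows of the GRCm38.p6 build, from 250 bases before the start to 50 after it, were matched for 8 of the 10 genes, with 9 windows in all because Tgfbr1 has a second start. Tgfb3 and Tgfbr3 had no window. The 4 windows printed here are those of Tgfbr1, which lay under the most sharply placed region, Acvr1, beside the only region called in all 3 libraries of 1 group and in none of the other group, Tgfb2, which had the largest difference at a start, and Eng, whose start was bare in every library. Each is written 5′ to 3′ on the strand of the gene, and capitals mark bases under a union region in at least 1 library.
Tgfbr1, chr4:47352972-47353271, plus strand: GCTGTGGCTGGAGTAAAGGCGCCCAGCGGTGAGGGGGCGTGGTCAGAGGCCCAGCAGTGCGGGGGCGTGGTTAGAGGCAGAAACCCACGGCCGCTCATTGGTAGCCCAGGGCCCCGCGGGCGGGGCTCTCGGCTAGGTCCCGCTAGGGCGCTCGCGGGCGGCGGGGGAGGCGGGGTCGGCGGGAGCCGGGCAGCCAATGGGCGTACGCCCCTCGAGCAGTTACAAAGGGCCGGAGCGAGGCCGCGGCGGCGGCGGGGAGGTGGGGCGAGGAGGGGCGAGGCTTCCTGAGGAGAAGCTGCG
Acvr1, chr2:58566779-58567078, minus strand: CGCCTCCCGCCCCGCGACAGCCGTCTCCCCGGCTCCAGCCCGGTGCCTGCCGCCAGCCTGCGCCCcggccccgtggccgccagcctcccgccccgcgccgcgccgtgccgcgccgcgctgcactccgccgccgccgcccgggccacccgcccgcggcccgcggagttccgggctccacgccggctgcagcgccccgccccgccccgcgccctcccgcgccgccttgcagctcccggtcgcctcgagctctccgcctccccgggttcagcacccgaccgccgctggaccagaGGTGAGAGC
Tgfb2, chr1:186705940-186706239, minus strand: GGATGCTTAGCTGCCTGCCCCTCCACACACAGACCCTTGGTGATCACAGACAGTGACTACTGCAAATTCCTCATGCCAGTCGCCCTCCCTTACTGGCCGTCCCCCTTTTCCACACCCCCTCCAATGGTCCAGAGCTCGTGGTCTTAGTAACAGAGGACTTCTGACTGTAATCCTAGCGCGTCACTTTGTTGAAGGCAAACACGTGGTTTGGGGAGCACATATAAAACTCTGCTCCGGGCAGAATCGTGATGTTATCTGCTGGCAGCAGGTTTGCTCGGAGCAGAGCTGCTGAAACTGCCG
Eng, chr2:32646345-32646644, plus strand: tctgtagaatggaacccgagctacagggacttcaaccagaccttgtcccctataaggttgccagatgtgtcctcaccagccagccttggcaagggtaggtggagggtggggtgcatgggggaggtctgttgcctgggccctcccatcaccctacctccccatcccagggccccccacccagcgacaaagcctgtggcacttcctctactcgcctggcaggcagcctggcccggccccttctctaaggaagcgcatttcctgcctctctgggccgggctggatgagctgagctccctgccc

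All 300 bases of the Tgfbr1 and Tgfb2 windows lay under a region with a peak in all 6 libraries. In the Acvr1 window the first 65 bases lay under a region of the NC-labelled libraries alone and the last 9 under a second region, with the start itself between them and under neither. The Eng window had no base under any region. Of the other windows, that of Tgfbr2 was covered over all 300 bases and that of Bmpr2 over 126, while those of Tgfb1, Bmp4 and the second start of Tgfbr1 had none. A region with a peak in all 6 libraries touched the window of 4 of 8 members (50%), against 44.2% of 17492 protein-coding genes with a window.

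The letters of these windows were searched on both strands for 6 short motifs, none of which contains another. ATTAAA, an AT-rich hexamer of the type described for ARID3A, occurred in 0 of the 9 member windows and in 11.7% of 21263 promoter windows. Among promoters with a region in all 6 libraries the share was 6.28%, and among those with no region it was 17.2%. The GC box GGGCGG occurred in 5 of 9 member windows, against 46.2% of all. Acvr1 and Tgfb1 had 6 copies each and Tgfbr1 had 2. CCAAT occurred in 4 of 9 windows against 38.2%. In the Tgfbr1 window it began 154 and 57 bases before the start. TATAAA was found in 1 window, that of Tgfb2, beginning 31 bases before the start, against 12.6% of all. The AP-1 type heptamer TGANTCA was in 0 of 9 windows against 6.99%, and the SMAD-type pentamer GTCTG in 4 of 9 against 48.4%. A lower share at promoters with a region in all 6 libraries than at those with none was not particular to ATTAAA. These shares were 5.61% and 19.3% for TATAAA, 4.79% and 8.73% for TGANTCA, and 46.2% and 50.3% for GTCTG. They ran the other way for GGGCGG, at 70.3% and 23.3%, and for CCAAT, at 40.4% and 37.3%.

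Base composition differed widely among the windows with bases under a region. The Acvr1 window, with 74 of 300 bases under regions, was 83.67% G or C with 51 CpG. Neither of its regions was called in all 6 libraries. The first Tgfbr1 window was 74.67% G or C with 34 CpG. The Tgfb2 window, covered just as fully as that of Tgfbr1, was 54.33% G or C with 10 CpG. Medians were 62.33% and 23 CpG over promoters with a region in all 6 libraries, and 49.67% and 4 over promoters with none. The uncovered Tgfb1 window was 77.0% G or C with 30 CpG, so it lacked a region despite a composition above the median of covered promoters. A region called in 1 siArid3a-labelled and 2 NC-labelled libraries began 91 bp past the Tgfb1 start, beyond the end of the window.

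Every one of the 10 genes had a peak in every library. Of their 79 regions, 38 (48.1%) had a peak in all 6 libraries, against a background of 37.3% over all union regions and 39.2% over regions in gene windows. Regions in a single library numbered 12 (15.2%), against 30.2% of all. Regions with a peak in all 6 libraries were found at all 10 members and at 62.4% of protein-coding genes, with a median of 3.245 per 100 kb of window at the members and 1.942 at all genes. Window length differs between genes, so these shares describe the members and were not tested. The shared regions of the members had a median fold below that of all shared regions. Their median fold over local background, which is the authors' deposited value for each peak, was 6.198, against 7.372 over all shared regions.

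Most member regions lay away from gene starts. Inside the gene body were 62 of the 79 regions, and 8 lay inside a neighbouring gene. Of the 47 regions at genes with a known start, 9 were within 1 kb of it and 27 were more than 10 kb away. In the map of fold by library, 38 regions are filled across and 41 lack a peak in at least 1 library. Tgfbr3 had the most regions, 27, and Acvr1 followed with 14. Tgfbr2, Bmpr2 and Bmp4 had 3 each.

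**Figure D1:**
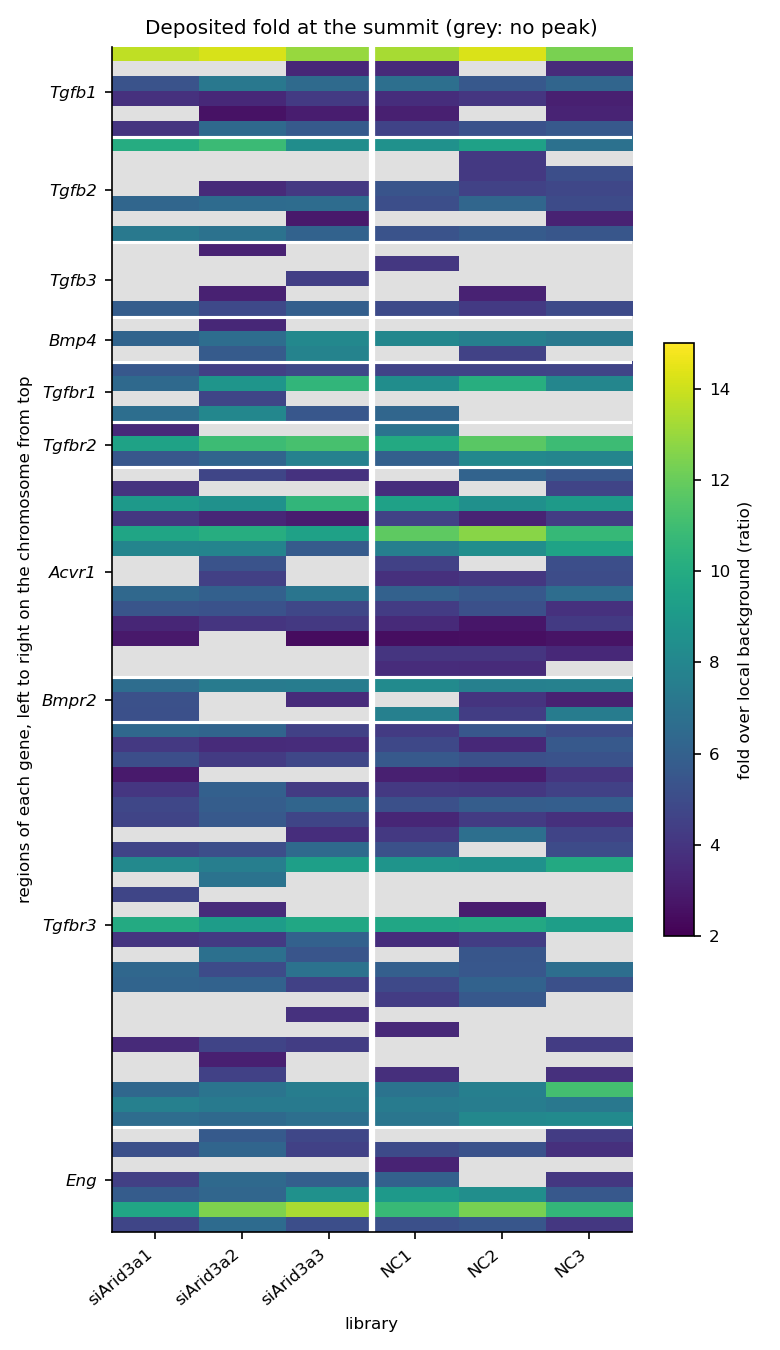
Deposited fold over local background at the summit of each member region (top to bottom by gene and along the chromosome) in each library (siArid3a-labelled at left, NC-labelled at right). Grey cells mark a library without a peak; 38 of the 79 regions are filled in all 6 libraries, and the regions with the highest fold, near Tgfb1 and in Eng, are bright in both groups.

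Among the ligand genes, Tgfb1 encodes the most widely studied TGF-beta and lies at chr7:25687002-25705077 on the plus strand. It had 6 regions, 4 of them shared by all 6 libraries, or 10.505 per 100 kb of window, the highest density of the 10 genes. In each gene the top-ranked region is the one with the highest mean percentile of −log10 q within its lists, which need not have the highest fold. The top-ranked Tgfb1 region, chr7:25680498-25681123, lay 5879 bp upstream of Tgfb1 and over the start of the neighbouring gene B9d2, so it cannot be given to Tgfb1. The fold there was 13.76, 14.22 and 13 in the siArid3a-labelled libraries, against 13.3, 14.28 and 12.39 in the NC-labelled libraries. The groups overlapped, and the region stood at percentile 89.63 to 94.11 of the −log10 q of its lists.

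Closer to Tgfb1, a region at chr7:25687093-25687677 began 91 bp past the start and was called in siArid3a-labelled library 3 and NC-labelled libraries 1 and 3 only, at a fold of 3.452 in the siArid3a-labelled library, against 3.54 and 3.622 in the NC-labelled libraries. The region at chr7:25688989-25689886, inside the gene, was called in all 6 libraries. Its fold was 5.309, 7.19 and 6.512 in the siArid3a-labelled libraries, against 6.748, 5.555 and 6.226 in the NC-labelled libraries, with the lowest and the highest value in the same group. A further region in all 6 libraries lay inside the neighbouring gene Ccdc97.

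To compare regions between groups, the number of fragments at each summit was solved from the deposited fold and p-value, 1 was added, and the result was divided by a library factor from the median ratio over all regions. These scaled summit fragments were tested with limma at the 29602 regions called in all 6 libraries, and differences are log2 values of siArid3a minus NC with their SE. At the B9d2 region the difference was 0.09 ± 0.15 (limma adjusted p = 0.877).

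Tgfb2, a ligand whose loss in humans causes aneurysm, lies at chr1:186622787-186709697 with its start at position 186705989 on the minus strand. The annotated gene reaches past that start, so the region over it counts as inside the gene. That region, chr1:186705296-186706917, was the top-ranked of its 7 by −log10 q, although the region at chr1:186627299-186628197 had a higher fold in every library. The median summit lay 624 bp upstream of the start, and summits spread over 203 bp. The fold was 7.272, 6.921 and 6.098 in the siArid3a-labelled libraries, against 5.332, 5.722 and 5.494 in the NC-labelled libraries. Every siArid3a-labelled library was above every NC-labelled library in fold, and the share of all regions that separate in fold was not counted.

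Scaled summit fragments at the Tgfb2 start were 56.64, 49.04 and 44.62 in the siArid3a-labelled libraries, against 36.91, 38.87 and 36.91 in the NC-labelled libraries, with means of 50.1 ± 6.08 and 37.6 ± 1.13 (SD, n = 3 each). The groups did not overlap here either, and 7.76% of all 29602 regions tested separated in this direction. The difference of 0.41 ± 0.15 did not pass the threshold over all regions (limma adjusted p = 0.272, unadjusted 0.0106). The other shared regions of Tgfb2, both in the gene body, had differences of 0.43 and 0.26. A region at chr1:186656454-186656741, 49248 bp from the start, had peaks in 0 siArid3a-labelled libraries and in NC-labelled libraries 2 and 3, with 7 and 8 summit fragments.

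Tgfb3, the third TGF-beta ligand, lies at chr12:86056743-86079041, and its strand is not given in the table used here. Only 1 of its 5 regions was called in all 6 libraries, and 3 were called in 1 library. The shared region, chr12:86078495-86079701, covered the right end of the gene. Its fold was 5.827, 4.886 and 5.926 in the siArid3a-labelled libraries, against 4.914, 4.192 and 4.911 in the NC-labelled libraries. The groups overlapped, at a difference in scaled fragments of 0.20 ± 0.19 (limma adjusted p = 0.745). Summits spread over 462 bp, more than 2 times the 185 bp of the median shared member region.

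Bmp4, a BMP ligand, is the shortest of the 10 genes, at chr14:46383525-46390669 on the minus strand. No region lay over its start. Its top-ranked region, chr14:46386265-46387780, lay 2889 bp inside the gene from its start. The fold was 6.165, 6.663 and 8.064 in the siArid3a-labelled libraries, against 8.005, 7.613 and 7.278 in the NC-labelled libraries, and siArid3a-labelled library 3 exceeded all 3 NC-labelled libraries. The difference was -0.05 ± 0.16 (limma adjusted p = 0.953). The other 2 regions of Bmp4 were called in 1 and 3 libraries.

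Among the type I receptor genes, Tgfbr1, also called ALK5, lies at chr4:47353222-47414926 on the plus strand. The region over its first start, chr4:47352581-47353528, had its summit within 6 bp in all 6 libraries, at a median of 50 bp before the start. That position lies within the printed window, close to the second CCAAT. The fold was 6.433, 8.772 and 10.54 in the siArid3a-labelled libraries, against 8.351, 10.17 and 7.974 in the NC-labelled libraries. The −log10 q was 13.22, 25.68 and 39.43 in the siArid3a-labelled libraries, against 30.57, 41.55 and 25.87 in the NC-labelled libraries.

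At the Tgfbr1 start, siArid3a-labelled library 1 was the lowest of the 6 and siArid3a-labelled library 3 the highest in fold. Scaled summit fragments were 33.74, 46.86 and 59.83 in the siArid3a-labelled libraries, against 48.62, 55.29 and 44.48 in the NC-labelled libraries. The difference of -0.11 ± 0.16 was smaller than this spread (limma adjusted p = 0.849). A region in the gene body, chr4:47407216-47407747, was called in 3 siArid3a-labelled libraries and 1 NC-labelled library, at a fold of 6.673, 8.013 and 5.53 against 6.267 in NC-labelled library 1. It rested on 10, 11 and 8 summit fragments in the siArid3a-labelled libraries, against 11 in the NC-labelled library.

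**Figure D2:**
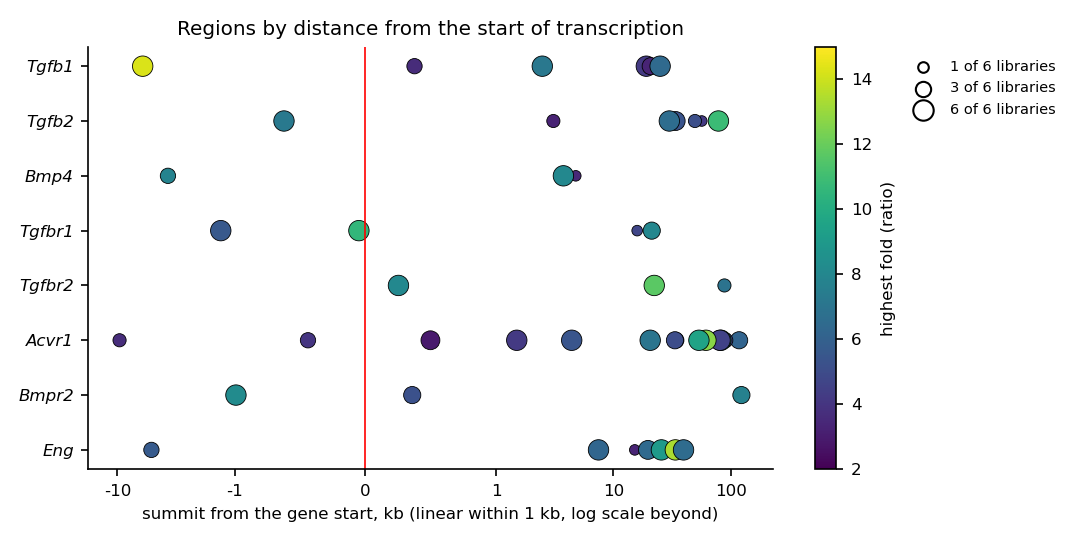
Median summit of each region in kb from the gene start for the 8 members with a known start; negative values are upstream, the axis is linear within 1 kb and logarithmic beyond, point size is the number of libraries with a peak and colour the highest fold. The Tgfbr1 point at -50 bp and the Bmpr2 and Tgfb2 points, 992 and 624 bp upstream, are the shared regions nearest upstream of a start, and Eng has no point within 1 kb.

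Acvr1, also called ALK2, is a type I receptor for BMPs and activins and lies at chr2:58446438-58566828 on the minus strand. It had 14 regions, 7 of them called in all 6 libraries. The number of peaks in its window was 9, 10 and 10 in the siArid3a-labelled libraries, against 13, 12 and 13 in the NC-labelled libraries. The groups did not overlap. Acvr1 was the only member of the 10 whose numbers did not overlap, in either direction. Over 16533 genes with a region the background was 1.49% for lower and 1.11% for higher numbers in the siArid3a-labelled libraries. That background was not adjusted for the number of regions of a gene, and 3 libraries against 3 cannot give an exact p under 0.1. The Acvr1 numbers include peaks at chr2:58567014-58567650 and chr2:58576118-58576514, outside Acvr1 and inside the neighbouring gene Upp2. These regions were called in 3 and 2 NC-labelled libraries and in 0 siArid3a-labelled libraries. Without their peaks the numbers of the groups overlap.

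Of the 79 regions, a single one was called throughout 1 group and nowhere in the other. It lay upstream of Acvr1, at chr2:58567014-58567650, 186 bp before the start. It held no siArid3a-labelled peak, and in the NC-labelled libraries its fold was 4.005, 4.006 and 3.509 and the summits had 33, 32 and 29 fragments. The −log10 q was 9.295, 9.051 and 6.761, so these were peaks of middle rank, at percentile 40.96 to 49.44 of their lists. The region also covers the start of Upp2, a uridine phosphorylase gene read in the opposite direction. Of all union regions, 0.608% were of this kind, and 0.342% were the reverse, of which the members had 0. Leaving out 1 library gave 3, 2 and 2 regions called in every NC-labelled library and in no siArid3a-labelled library without siArid3a-labelled libraries 1, 2 and 3, and 2, 1 and 3 without NC-labelled libraries 1, 2 and 3.

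A missing peak says that the caller did not list one, not that signal was absent. In the siArid3a-labelled lists 5.45%, 5.82% and 6.12% of peaks had a fold below 3.509, the lowest NC-labelled fold of the upstream Acvr1 region. The region next to it, chr2:58566099-58566787, ended 41 bp inside the start and was called in siArid3a-labelled libraries 1 and 3 at a fold of 2.866 and 2.456, against 2.475, 2.535 and 2.694 in the NC-labelled libraries. The lower coverage of the siArid3a-labelled libraries moves with this difference, and its part in the result was not tested.

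Away from the start, the top-ranked Acvr1 region by −log10 q was chr2:58484094-58485182 in the gene body. Its fold was 9.021, 8.596 and 10.58 in the siArid3a-labelled libraries, against 9.426, 8.535 and 9.095 in the NC-labelled libraries, and the groups overlapped (difference -0.12 ± 0.14, limma adjusted p = 0.798). At chr2:58505314-58506143 scaled summit fragments were 36.15, 35.96 and 31.44 in the siArid3a-labelled libraries, against 44.12, 46.65 and 45.42 in the NC-labelled libraries. These groups did not overlap, but the difference of -0.40 ± 0.16 did not pass the threshold (limma adjusted p = 0.297). The 5 other shared regions had differences of -0.33 to 0.21. The region at chr2:58533197-58533848 was called in 1 siArid3a-labelled library and 3 NC-labelled libraries. The region at chr2:58576118-58576514, inside Upp2, was called in 0 siArid3a-labelled libraries and 2 NC-labelled libraries.

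Among the type II receptor genes, Tgfbr2 encodes the receptor that binds TGF-beta first and lies at chr9:116087695-116175363 on the minus strand. Its top-ranked region, chr9:116152747-116153454, was 21909 bp from the start. The fold there was 9.469, 10.89 and 11.2 in the siArid3a-labelled libraries, against 9.902, 11.67 and 10.92 in the NC-labelled libraries. The groups overlapped at a difference of 0.05 ± 0.18 (limma adjusted p = 0.949). The region over the start, chr9:116174493-116175922, was lower, with a fold of 5.514, 6.187 and 7.729 in the siArid3a-labelled libraries, against 6.006, 8.07 and 7.934 in the NC-labelled libraries. Its difference was 0.00 ± 0.20 (limma adjusted p = 0.998). In contrast to Tgfbr1, its summits spread over 500 bp.

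Bmpr2, the BMP type II receptor gene mutated in human pulmonary arterial hypertension, lies at chr1:59764279-59878081 on the plus strand. It had 0.747 shared regions per 100 kb of window, the lowest density of the 10 genes. Its 1 shared region, chr1:59762673-59764154, ended 125 bp before the start with the median summit 992 bp upstream. The fold was 6.648, 7.427 and 7.443 in the siArid3a-labelled libraries, against 8.206, 7.648 and 7.691 in the NC-labelled libraries. Every siArid3a-labelled library was below every NC-labelled library in fold, but 3 libraries against 3 cannot give an exact p under 0.1. The share of all regions that separate in fold was not counted. Scaled summit fragments were 42.18, 41.41 and 43.61 in the siArid3a-labelled libraries, against 48.62, 44.92 and 40.69 in the NC-labelled libraries, and here the groups overlapped (difference -0.07 ± 0.15, limma adjusted p = 0.907). A region past the right end, chr1:59886792-59887523, was called in 1 siArid3a-labelled library and 3 NC-labelled libraries, with 9 summit fragments in the siArid3a-labelled library, against 17, 9 and 15 in the NC-labelled libraries.

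Among the co-receptor genes, Tgfbr3 encodes betaglycan, which binds TGF-beta 2 with high affinity and lies at chr5:107106567-107289629. It is the longest of the 10 genes and held 27 regions, 13 of them shared. Its top-ranked region by −log10 q, chr5:107166570-107168130, lay 60003 bp inside the left end. The fold was 8.111, 7.581 and 9.332 in the siArid3a-labelled libraries, against 8.74, 8.556 and 9.888 in the NC-labelled libraries, and the groups overlapped.

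In scaled summit fragments the same Tgfbr3 region did separate the groups, at 55.43, 49.04 and 61.86 in the siArid3a-labelled libraries, against 72.03, 67.38 and 92.74 in the NC-labelled libraries. The means were 55.5 ± 6.41 and 77.4 ± 13.5 (SD, n = 3 each). The difference of -0.47 ± 0.14 was the largest of the members in size and had their lowest p, yet it did not pass the threshold (limma adjusted p = 0.122, unadjusted 0.00101). Taken on the deposited fold, which is already relative to local background, it was -0.12 (limma adjusted p = 0.88).

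At the right end of Tgfbr3, whose strand is not given in the table used here, lay a region at chr5:107288538-107289741. Its fold was 7.653, 7.331 and 7.305 in the siArid3a-labelled libraries, against 7.432, 7.531 and 7.208 in the NC-labelled libraries. The fold spread less here than at any other region over a member's start or end, and the groups overlapped. Scaled summit fragments were 32.54, 30.52 and 34.48 in the siArid3a-labelled libraries, against 36.91, 38.87 and 36.91 in the NC-labelled libraries, without overlap (difference -0.21 ± 0.17, limma adjusted p = 0.679). Differences at the Tgfbr3 regions ran from -0.47 to 0.45, so single regions of this gene lay on both sides of 0.

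Presence also differed on both sides at Tgfbr3. Regions at chr5:107120021-107120378 and chr5:107157495-107157841 were called in 1 siArid3a-labelled library and 3 NC-labelled libraries each, and chr5:107235846-107236261 in 0 siArid3a-labelled and 2 NC-labelled libraries. The region at chr5:107253271-107253827 was called in 3 siArid3a-labelled libraries and 1 NC-labelled library, with 5, 6 and 6 summit fragments in the siArid3a-labelled libraries, against 6 in the NC-labelled library. Their percentiles of −log10 q ran from 2.2 to 65.67.

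Eng encodes endoglin, a co-receptor best known from endothelial cells, and lies at chr2:32646595-32682669 on the plus strand. Its top-ranked region, chr2:32679908-32681424, ended 1245 bp short of the right end of the gene. By mean percentile of −log10 q it ranked highest of the 79 regions, at percentile 93.16 to 97.8 of its lists. The fold was 9.672, 12.5 and 13.33 in the siArid3a-labelled libraries, against 10.76, 12.31 and 10.63 in the NC-labelled libraries. Scaled summit fragments were 71.1, 90.46 and 98.37 in the siArid3a-labelled libraries, against 79.23, 85.52 and 73.81 in the NC-labelled libraries. As at Tgfbr1, siArid3a-labelled library 1 was the lowest and library 3 of that group the highest, and the difference of 0.11 ± 0.12 lay within that spread (limma adjusted p = 0.79).

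The start of Eng was bare in all 6 libraries. The nearest regions began 6951 bp inside the gene, where all 6 libraries had a peak, and ended 5041 bp upstream, where siArid3a-labelled libraries 2 and 3 and NC-labelled library 3 had one. A last region called in all 6 libraries lay past the right end inside the neighbouring gene Fpgs.

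**Figure D3:**
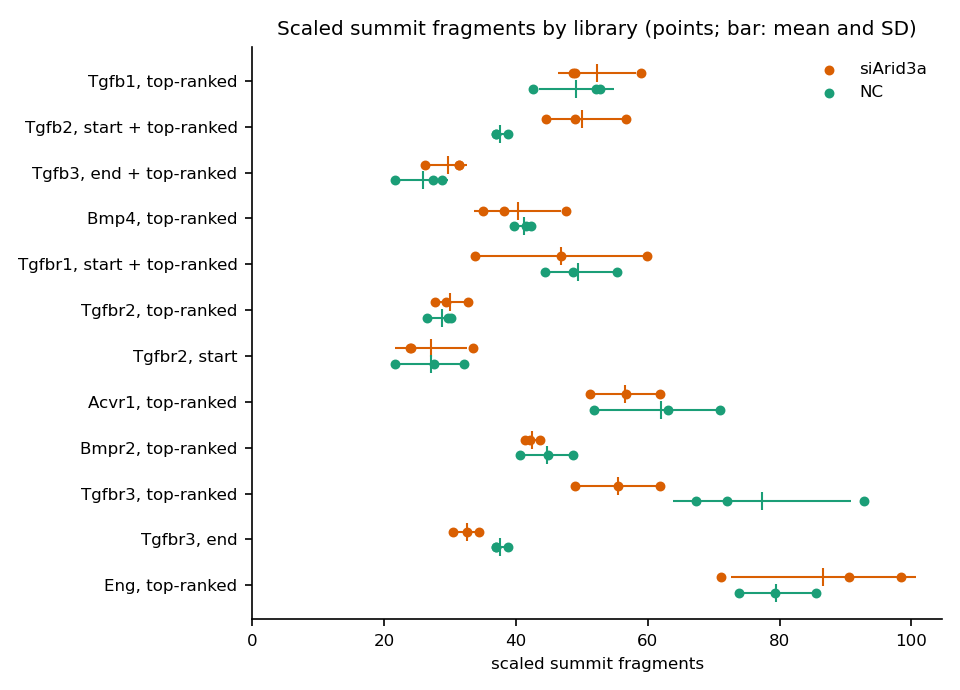
Scaled summit fragments in each library (points) with mean and SD (bars) at each member's top-ranked region and, where called in all 6 libraries, the region over its start or end, siArid3a-labelled above NC-labelled for each region. The groups separate at the Tgfb2 start (lowest siArid3a-labelled value 44.62, highest NC-labelled value 38.87), the top-ranked Tgfbr3 region and the Tgfbr3 end, and overlap at the other regions plotted.

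Taken over the 10 genes, the number of peaks per library was 53, 62 and 58 in the siArid3a-labelled libraries, against 61, 57 and 60 in the NC-labelled libraries. The groups overlapped, with means of 57.7 ± 4.51 and 59.3 ± 2.08 (SD, n = 3 each; difference -1.67, exact permutation p = 0.7, two-sided). The sign rested on siArid3a-labelled library 1, without which the difference was 0.667 (exact permutation p = 0.8), and with 50 kb on either side it was 4.33 (exact permutation p = 0.4). The length that peaks covered was 28.919, 31.176 and 31.447 kb in the siArid3a-labelled libraries, against 36.960, 34.557 and 35.553 kb in the NC-labelled libraries. Every siArid3a-labelled library was below every NC-labelled library, at means of 30.5 ± 1.39 and 35.7 ± 1.21 kb (SD, n = 3 each; difference -5.18 kb, exact permutation p = 0.1, the smallest this design allows).

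The mean covered length of the siArid3a-labelled libraries was 85.5% of the NC-labelled mean in the windows of the 10 genes and 86.5% over the whole lists. Peaks were narrower, at a mean of 545.6, 502.8 and 542.2 bp in the siArid3a-labelled libraries, against 605.9, 606.3 and 592.6 bp in the NC-labelled libraries. The whole lists differed in the same direction, at 514.26, 467.09 and 492.19 bp in the siArid3a-labelled libraries, against 573.4, 558.52 and 549.27 bp in the NC-labelled libraries. The median fold of the member peaks overlapped between groups, at 5.427, 5.908 and 5.608 in the siArid3a-labelled libraries, against 5.138, 5.493 and 5.061 in the NC-labelled libraries.

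Numbers of regions on each side were close. A peak in more siArid3a-labelled than NC-labelled libraries was found at 16 regions (background 25.0%) and the reverse at 18 (background 27.8%), while 45 were equal. A lead of exactly 2 libraries was found at 2 regions for the siArid3a-labelled group (background 3.09%), and at 7 for the NC-labelled group (background 4.42%), at Tgfb2, Acvr1, Bmpr2 and Tgfbr3.

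None of the 38 shared member regions was called by limma at an adjusted p under 0.05. At an unadjusted p under 0.05 there were 3 higher and 4 lower in the siArid3a-labelled libraries, 18.4% of the 38 against a background of 11.4%. Fragments that did not overlap between groups were found at 3 regions higher (background 7.76%) and 4 lower (background 8.16%). The median difference was 0.01 over the member regions, with quartiles of -0.12 and 0.12, against 0.00 over all 29602 regions, with quartiles of -0.15 and 0.15. Over all regions 29 were called higher (0.098%) and 39 lower (0.132%), and without siArid3a-labelled library 1 these were 151 and 229. In simulated data of the same size the test recovered 67.4% of the regions changed 2-fold and 93.0% of those changed 3-fold. It made 6 false calls. No change below 2-fold was planted. The rates therefore do not cover a change as small as the largest member difference, -0.47 in log2. The simulated counts were Poisson and every changed region stayed in the test. In the data a region that lacks a peak in any library is not tested, so these rates do not cover such regions.

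By gene, the median difference over the shared regions was 0.41 at Tgfb2, 0.20 at Tgfb3, 0.10 at Eng, 0.03 at Tgfbr2 and 0.02 at Tgfb1. It was -0.04 at Tgfbr1, -0.05 at Bmp4, -0.07 at Bmpr2, -0.09 at Tgfbr3 and -0.12 at Acvr1. Regions of 1 gene share their surroundings and are not replicates, so these medians carry no test. Without scaling the median of all regions moved to -0.29, and 3006 of the 29602 regions (10.2%) were then called lower. Of the 38 member regions 4 were among them, a share near that background, at chr2:58505314-58506143 in Acvr1 and, at Tgfbr3, at chr5:107166570-107168130, chr5:107283685-107284433 and chr5:107294996-107295697 (limma adjusted p = 0.016, 0.00687, 0.0269 and 0.0303). Scaled by background coverage, the median of all regions was 0.11 and no member region was called. Each scaling moves all regions by about the same amount, and the sign of a gene median can turn with it. Without scaling the median was -0.09 at Tgfb3, -0.18 at Eng, -0.26 at Tgfbr2 and -0.26 at Tgfb1, and scaled by background it was above 0 at Tgfbr1, Bmp4, Bmpr2 and Tgfbr3 (0.02 to 0.07).

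**Figure D4:**
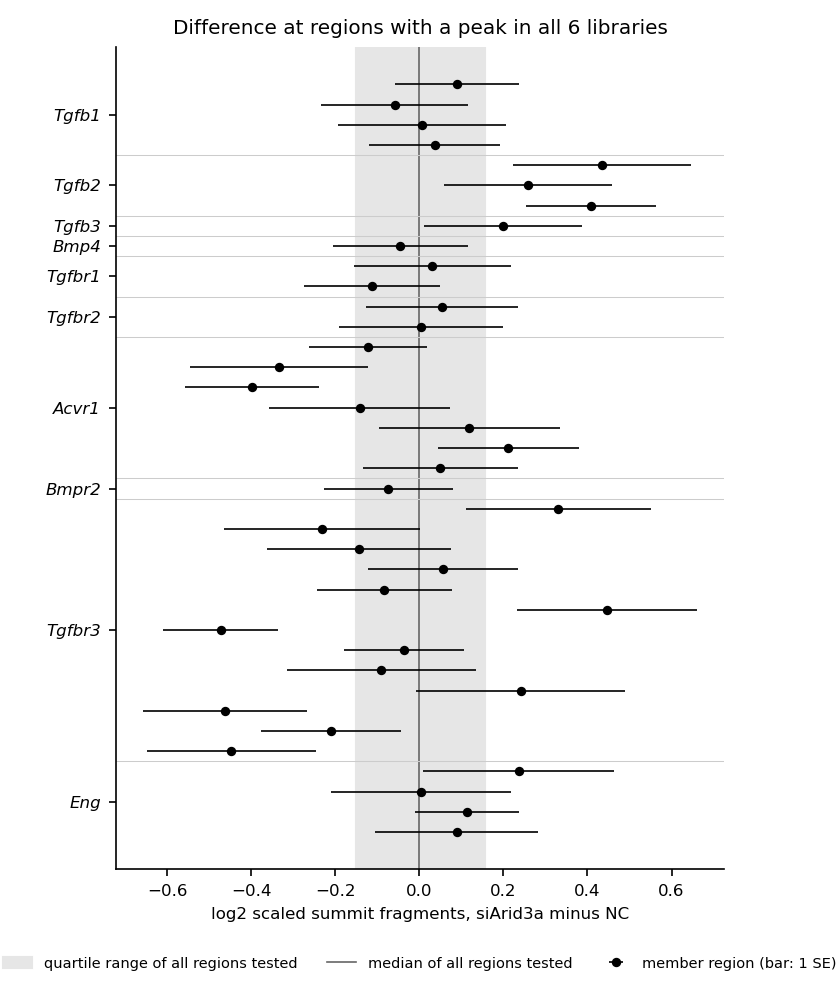
Log2 difference of scaled summit fragments, siArid3a minus NC, with 1 SE, at the 38 member regions called in all 6 libraries, beside the median and the quartile range of all 29602 regions tested. Points lie from -0.47 (top-ranked Tgfbr3 region) to 0.45 (also Tgfbr3), the 3 Tgfb2 points lie at 0.26, 0.41 and 0.43 with this scaling, and none of the points was called.

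The rest of the pathway was described through 7 lists with 83 genes, chosen by role. A region in all 6 libraries was found at 71 of them, against 62.4% of protein-coding genes, without adjustment for window length. All 8 other type I and II receptor genes, all 8 SMAD genes, all 8 genes of intracellular inhibitors and all 16 target genes had one. Fewer were found among the other BMP, GDF and activin ligands, at 10 of 19, where Bmp2, Gdf6, Gdf10 and Mstn had no region in any library. Genes of latency and activation had one at 11 of 12, and extracellular and membrane inhibitors at 10 of 12, without Nog, a BMP antagonist, and Sost.

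Of the 232 shared regions in these 7 lists, limma called 0 (adjusted p under 0.05), with 29 at an unadjusted p under 0.05 (12.5%, against a background of 11.4%), and limma without trend also called 0 of all regions. A region in every NC-labelled and no siArid3a-labelled library lay at 6 of the 83 genes (background 1.94% of protein-coding genes), and the reverse at 1 (background 1.06%). These gene shares were not adjusted for the number of regions. The 83 genes held 538 regions, with 23 at Smad3 and 26 at Fbn1. Of all union regions 0.608% were of the first kind and 0.342% the reverse. Among the 6 genes was Smad3, a receptor-activated SMAD of TGF-beta signalling, at chr9:63742473-63743149 where the NC-labelled summits had 42, 40 and 35 fragments. Ltbp4, a latent TGF-beta binding protein, had such a region with 25, 28 and 20 fragments, and Fbn1, the fibrillin of Marfan syndrome in humans, with 12, 10 and 9. The BMP antagonist Grem1 had 18, 18 and 25, the ligand gene Bmp6 12, 14 and 13, and Tgfb1i1, which encodes a focal adhesion protein, 15, 12 and 14. In the other direction Tagln, a contractile gene of smooth muscle, had a region in the siArid3a-labelled libraries alone, with 11, 15 and 13 fragments. These counts are not scaled, and the coverage difference moves with them.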

How the data were processed

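CUT&Tag peak lists of 6 libraries, 3 siArid3a-labelled and 3 NC-labelled, were used, 1 list per library and none pooled. Per the submitters' processing notes, the tools were Bowtie2, Picard and MACS2 and the build was mm10, with versions and settings not given in the sources used here. For each peak the authors deposited a score, the fold over local background (a ratio), and p-values and q-values as −log10. Score and q-value served to describe or rank peaks within 1 list. An alternative setting also kept only peaks with a −log10 q of at least 5 in every list. The lists hold no read counts over fixed regions and no library totals, so depth was taken from solved background coverage.

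Summit fragments and local background were solved from fold and p-value with a fold pseudocount of 1 and a tolerance of 0.0001, for 100% of peaks. Regions were unions of peaks overlapping by 1 bp, and a region took its strongest peak in each library. The limma test with trend ran on log2(fragments + 1) scaled by the median ratio, siArid3a minus NC, at the 29602 regions in all 6 libraries, with Benjamini-Hochberg adjustment over them and a threshold of 0.05. It was tested on simulated data. Peak numbers and covered lengths were compared by exact permutation over 20 assignments, where no p under 0.1 is possible. Shares carry no test.

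The members and lists were chosen with earlier results of these data known. Named for each gene were the regions over its start or end and the region with the highest mean percentile of −log10 q. Regions in 1 group only and regions differing by 2 libraries were also named. Added after their values were seen were 1 further Acvr1 region, the Tgfb1 regions near its start and the regions beside the Acvr1 and Eng starts. Also chosen by their values were the Tgfb2 region of higher fold and the further Tgfbr3 regions called without scaling. The regions inside Ccdc97 and Fpgs were outside this rule too. Of the pathway lists, genes with a region in 1 group only were named. SiArid3a-labelled libraries 2 and 3 were kept apart because their labels name different siRNAs, and averaging them was an alternative. Gene positions came from RefSeq tables of GRCm38.p6, which carries the mm10 coordinates; sequences are RefSeq's. No genome was used. Tools were Python 3.11.15, pandas 2.3.3, numpy 2.4.6, matplotlib 3.10.9, R 4.3.3 and limma 3.58.1.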

Additional observations from a re-analysis of the deposited data

How the results depend on the processing

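Of 414 values under another setting, 363 stayed on their side of the threshold or within the spread, 48 moved and 1 passed the threshold. The other 2, both peak number differences, were counted as reversed. Some log2 differences also changed sign but were counted as stayed or moved. The Tgfb1 gene median, 0.02 in the main setting, was -0.26 without scaling and counted as moved. The peak number difference in the member windows was 0 for gene bodies alone, 4.33 with 50 kb either side, and -3.83 to 0.667 with 1 library left out; without siArid3a-labelled library 1 it was 0.667. The wider window held 135 regions, 63 in all 6 libraries; that count was 25 where peaks had to cover 0.5 of a region. Regions in the NC-labelled group only numbered 0 in gene bodies, 2 at a −log10 q of at least 5, 2 at 0.5 cover, and 1 to 3 with 1 library left out; in the siArid3a-labelled group only, 0 to 1. Over all regions, calls higher and lower were 121 and 11 scaled by background, 4 and 3006 unscaled, 10 and 22 with siArid3a-labelled libraries 2 and 3 averaged, and 0 and 0 by limma without trend or on deposited fold (3009 and 2184 at an unadjusted p under 0.05). With 1 library left out they were 5 to 151 and 5 to 229: 151 and 229, 7 and 13, and 16 and 42 without siArid3a-labelled libraries 1, 2 and 3, and 5 and 7, 8 and 6, and 8 and 5 without NC-labelled libraries 1, 2 and 3. Member calls were 4 unscaled, where the top-ranked Tgfbr3 region reached -0.76 (limma adjusted p = 0.00687), and 0 in the other settings run. Replicate numbers did not pair the libraries (correlations of deviations 0.042, 0.033 and -0.023). A replicate block gave 41 and 68 calls, 0 of them at members, a peak number difference of -1.67 (exact permutation p = 0.75) and a covered length difference of -5.18 kb (exact permutation p = 0.25, the smallest possible). The cause of these changes was not tested. The lowest summit of a member region rests on 4 fragments, and the part that depth plays in presence was not tested.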
